A study of Mus musculus with 2 samples.

Results

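The cells described here were 286 endothelial cells of the mouse mitral valve, 27 from a wild-type (WT) library and 259 from an mgR library, that carried more genes of a Prox1, Vwf and Emcn set than of a Wnt9b and Nts set. Mitral valve leaflets of 12-week-old C57BL/6J mice were dissociated with collagenase and elastase, viable cells were sorted, and RNA was counted by the 10x 3′ v3 method as unique molecular identifiers (UMIs), 1 library per genotype. The mgR mice were homozygous for the hypomorphic Fbn1 mgR allele, which lowers the production of fibrillin-1, the main protein of extracellular microfibrils and the protein affected in Marfan syndrome. The WT mice were Fbn1+/+ littermates. An n of 3 is given for the single-cell plots, without saying whether it counts animals pooled into each library.

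The limits on cells were 200 to 5000 genes with a UMI and a mitochondrial share of at most 10%, which left 875 WT and 3438 mgR cells. A cell was taken as endothelial when its UMIs of Pecam1, Cdh5 and Egfl7 summed to at least 3, it had no UMI of the leukocyte gene Ptprc, and its C1qa, C1qb and C1qc UMIs summed to under 5. This gate held 51 WT and 440 mgR cells. A gated cell was a member when it carried a UMI of more genes of set A (Prox1, Vwf, Emcn, Lrg1, Plvap, Efnb2, Gpm6a and Ephx2) than of set B (Wnt9b, Nts, Ptprr, Pthlh, Dkk2, Inhba, Hapln1 and Palmd). The remaining gated cells were 20 WT and 152 mgR cells with more set B genes, called set B cells below, and 4 WT and 29 mgR cells with equal numbers. The members were thus chosen by the detection of these 16 genes, whose values are given as a description only.

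Valve endothelium is a continuous sheet on both faces of the leaflet, exposed to different blood flow on each face, and it exchanges signals with the interstitial cells beneath it. Prox1 is a homeodomain transcription factor known as the main regulator of lymphatic endothelial identity, and it is also active in the endothelium of vein and heart valves. Vwf encodes von Willebrand factor, the platelet-tethering glycoprotein that endothelium stores and secretes, and Emcn encodes endomucin, a sialomucin of the endothelial surface that limits leukocyte adhesion. Plvap builds the diaphragms of endothelial fenestrae and caveolae, Lrg1 encodes a secreted glycoprotein that modulates transforming growth factor β (TGF-β) signalling, Efnb2 encodes the membrane ligand ephrin-B2, Gpm6a a membrane glycoprotein best known in neurons, and Ephx2 soluble epoxide hydrolase, which breaks down epoxy fatty acids.

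Start-site windows of Prox1, Lrg1 and Emcn are shown, because these genes helped to choose the members. They run from 250 bases before to 50 bases after the annotated start, in the direction of transcription, and come from RefSeq on GRCm38.p6. Capitals mark GGAAG, the core of many ETS factor sites, and CCACCC, a sequence bound by Klf factors, on either strand (CTTCC and GGGTGG on the other).
Prox1, minus strand, chr1:190170778-190171077: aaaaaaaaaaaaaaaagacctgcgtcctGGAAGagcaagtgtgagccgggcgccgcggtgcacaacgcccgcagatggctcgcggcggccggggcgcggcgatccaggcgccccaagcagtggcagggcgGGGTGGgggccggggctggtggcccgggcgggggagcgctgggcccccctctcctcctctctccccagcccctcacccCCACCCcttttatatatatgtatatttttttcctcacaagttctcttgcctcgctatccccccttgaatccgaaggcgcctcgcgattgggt
Lrg1, minus strand, chr17:56121897-56122196: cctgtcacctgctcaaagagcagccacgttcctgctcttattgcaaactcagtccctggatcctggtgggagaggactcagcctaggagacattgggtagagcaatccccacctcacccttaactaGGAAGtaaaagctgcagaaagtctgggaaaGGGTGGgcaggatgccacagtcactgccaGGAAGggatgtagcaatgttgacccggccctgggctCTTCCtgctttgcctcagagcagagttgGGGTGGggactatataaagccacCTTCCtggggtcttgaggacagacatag
Emcn, plus strand, chr3:137340828-137341127: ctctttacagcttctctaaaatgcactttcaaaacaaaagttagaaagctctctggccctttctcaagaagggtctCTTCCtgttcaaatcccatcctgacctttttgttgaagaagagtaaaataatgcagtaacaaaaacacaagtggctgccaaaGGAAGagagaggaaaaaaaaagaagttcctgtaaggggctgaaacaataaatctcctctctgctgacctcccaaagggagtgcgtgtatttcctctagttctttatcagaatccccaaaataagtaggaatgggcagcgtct
The Prox1 window shown held 1 ETS and 2 Klf matches, and a second one in the table, at chr1:190169466-190169765, 3 ETS matches and no Klf match. The Lrg1 window held 4 and 2, and the Emcn window 2 ETS matches and no Klf match. The gene bodies lie at chr1:190118035-190170714 for Prox1, chr17:56119678-56122001 for Lrg1 and chr3:137341067-137432185 for Emcn (GRCm38). Of the 8 set A genes, 5 were in the RefSeq table, with 7 windows, and Vwf, Plvap and Ephx2 were not. The ETS match was in 71.4% of the set A windows, 70.0% of the 10 set B windows and 71.4% of all 32851 windows, and the Klf match in 28.6%, 40.0% and 31.5%. Neither match was more frequent in the windows of the set A genes than in promoters at large. GATA matches, searched as AGATAA or its complement TTATCT, were in none of the set A windows, 10.0% of the set B windows and 11.2% of all.

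The libraries differed in depth and cell make-up. Deposited barcodes numbered 1104 in WT, with 5381844 UMIs in all, and 3802 in mgR, with 28215539, and no kept cell of one library shared its barcode with a kept cell of the other. Members had a median of 4143 UMIs and 1757 genes in WT and 4906 UMIs and 1970 genes in mgR. Their median mitochondrial share was 3.51% in WT and 2.14% in mgR. All UMIs of the members summed to 112265 in WT and 1379461 in mgR, and levels are given below as counts scaled per 1000000 UMIs (CPM) of these sums. Intervals in parentheses are exact 95% intervals, which take in only the chance of drawing molecules or cells and not the differences between animals. Each genotype had a single library here, and so no test between genotypes could be made.

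The study's methods describe male mice for its comparisons, but both libraries held cells with UMIs of Xist and of no Y-linked gene, 246 in WT and 2091 in mgR. Cells with Y-linked UMIs and no Xist numbered 337 and 724. Among the members 10 WT and 146 mgR cells were of the first kind and 5 and 48 of the second. The mix of sexes thus differed between the libraries. For some of the genes whose call or size changed, though not for all, values within one or both kinds of cell are added below.

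Fbn1 itself, the targeted gene, was lower in the mgR library. Over all kept cells it stood at 69.2 CPM in WT (317 UMIs) and 39.1 CPM in mgR (1044 UMIs). In the members it was at 142.5 CPM in WT (16 UMIs in 7 cells) and 50.7 CPM in mgR (70 UMIs in 55 cells), a ratio of 0.356 (0.205 to 0.657). A single WT cell held 62.5% of the 16 WT UMIs, and in set B cells the levels were in the other order, 35.1 CPM in WT and 55.9 CPM in mgR. Within Xist-only members the ratio was 1.06 and within Y-only members 1.42, on 2 and 1 WT UMIs, too few to place either ratio above or below 1 (intervals 0.276 to 9.03 and 0.221 to 59.7).

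Members made up 52.9% (38.5 to 67.1) of the gated endothelial cells in WT and 58.9% (54.1 to 63.5) in mgR, a difference of 5.92 percentage points, and the mgR share lay inside the WT interval. Of all kept cells they were 3.09% (2.04 to 4.46) in WT and 7.53% (6.67 to 8.47) in mgR. This second share depends on how much of every other cell type was released and sorted. After thinning each cell to 2000 UMIs, which left out 4 WT and 12 mgR members with fewer, the share of gated cells was 45.2% (27.3 to 64.0) in WT and 58.3% (52.8 to 63.6) in mgR. Among Xist-only gated cells the shares were 55.6% and 56.2%, and among Y-only gated cells 35.7% and 62.3%.

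**Figure D1:**
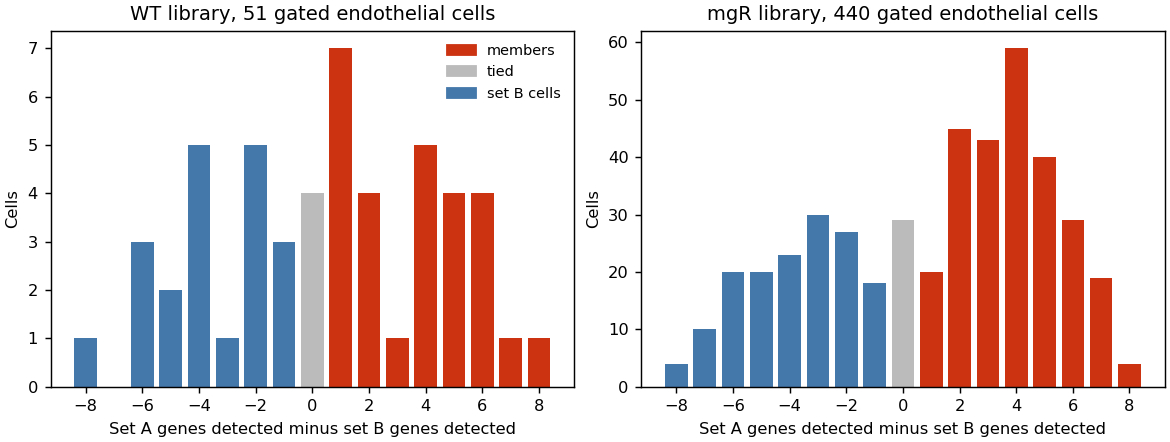
Number of gated endothelial cells (y axis) by the number of set A genes minus the number of set B genes with a UMI in the cell (x axis), for the WT library and the mgR library. Cells right of 0 are members; the mgR cells fall into a group with its peak at +4 (59 cells) and a second group at negative values, with 29 cells at 0.

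The gated cells did not run evenly from one set to the other. In the mgR library the most frequent margin among members was +4 (59 cells), and the most frequent number of set A genes detected was 5 (67 cells). No set B gene was detected in 16 of 27 WT and 112 of 259 mgR members, and all 8 set A genes were detected in 1 WT and 11 mgR cells. Just inside the threshold, at a margin of +1, stood 7 WT cells with a mean of 2.29 set A and 1.29 set B genes and 20 mgR cells with 3.25 and 2.25. Just outside it, at 0, the 4 WT cells carried a mean of 1.5 genes of each set and the 29 mgR cells 2.69 of each. The mgR cells at the threshold were thus cells in which both sets were detected, rather than cells in which little was.

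Prox1, the transcription factor, was detected in 63.0% of WT and 53.7% of mgR members, at 338.5 and 288.5 CPM, against 52.6 and 70.1 CPM in set B cells. Plvap was detected in 85.2% and 79.2% of members at 561.2 and 608.9 CPM, with set B cells at 43.9 and 130.5 CPM. Efnb2 was detected in 66.7% and 60.2%, at 320.7 and 254.4 CPM. These 3 genes differed little between the genotypes within the members. Lrg1, the secreted glycoprotein, had the sharpest boundary, being detected in 55.6% and 49.4% of members at 489.9 and 404.5 CPM and having 0 UMIs in the WT set B cells and 2 in the mgR set B cells. Gpm6a (29.6% and 45.9% of members) and Ephx2 (37.0% and 32.4%) were likewise almost absent from set B cells, with 0 WT UMIs each and 6 and 4 mgR UMIs. As a measure of free RNA, 375 WT and 1850 mgR cells with a Ptprc UMI, which had medians of 5510 and 8433.5 UMIs, carried each set A gene in at most 3.20% and 4.11% of cells.

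Among the set A genes, the CPM ratios of Vwf and Emcn in members were furthest from 1. Vwf was detected in 25.9% of WT and 68.0% of mgR members, at 187.1 and 487.9 CPM, a ratio of 2.61 (1.69 to 4.24). Emcn was detected in 63.0% and 91.5%, at 436.5 and 919.9 CPM, a ratio of 2.11 (1.58 to 2.86). Since both genes helped to choose the members, these values are a description only. Over all gated cells, whose gate did not use either gene, Vwf stood at 123.0 CPM in WT (30 UMIs) and 268.4 CPM in mgR (726 UMIs), a ratio of 2.18 (1.52 to 3.26), and Emcn at 336.1 and 632.2 CPM, a ratio of 1.88 (1.51 to 2.38). In the same cells Prox1 had a ratio of 1.0 (0.740 to 1.39), Lrg1 0.933, Efnb2 0.872, Ephx2 0.981, Plvap 1.35 and Gpm6a 1.72 (0.943 to 3.50). Of the set B genes there, Inhba had a ratio of 3.16, Nts 1.86, Pthlh 1.5 and Hapln1 0.544, so differences of this size were not limited to Vwf and Emcn. In set B cells the Emcn ratio was 1.33, on 27 WT UMIs. The Vwf ratio there was 0.870, but on only 5 WT UMIs in 2 cells, 4 of them in 1 cell. Within Xist-only members the Vwf ratio was 1.60 (0.907 to 3.13), on 12 WT UMIs, and that of Emcn 1.61, so both ratios were smaller within this kind of cell, and for Vwf the interval included 1. Among Y-only members the ratios were 5.34 for Vwf, on 2 WT UMIs, and 2.37 for Emcn.

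**Figure D2:**
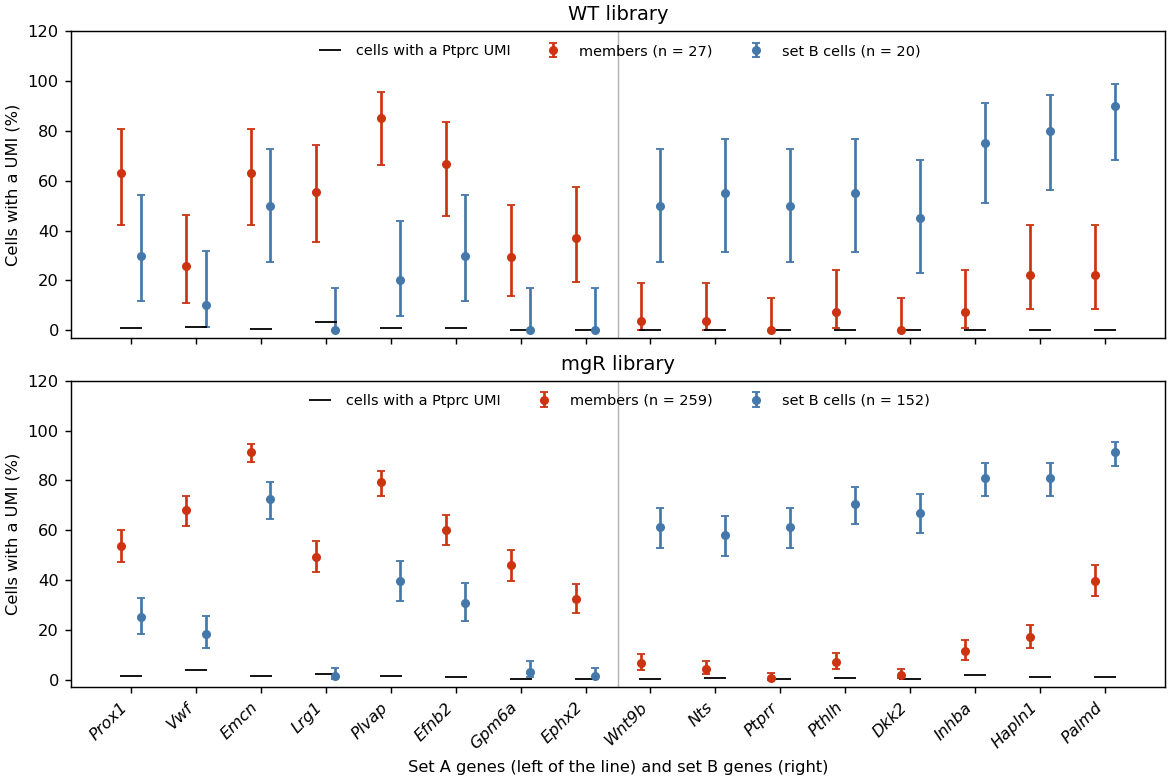
Percentage of cells with at least 1 UMI (y axis, with exact 95% intervals) for each set A and set B gene (x axis), in members (red) and set B cells (blue) of the WT library (top) and the mgR library (bottom), with a black line at the share in cells with a Ptprc UMI. Set A genes chose the members; Vwf was detected in 25.9% of WT and 68.0% of mgR members, whereas Prox1 and Lrg1 were detected at similar shares in both.

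Which set A genes were detected together is given as a description, since a member that lacks one of them must carry others to be chosen, and negative relations follow from that choice. Emcn was detected in 95.5% of Vwf-positive and 83.1% of Vwf-negative mgR members, and in 85.7% of 7 and 55.0% of 20 WT members. Gpm6a was detected in 48.5% of Emcn-positive and 18.2% of Emcn-negative mgR members, and in 41.2% and 10.0% in WT. Ephx2 was detected in 40.6% of Lrg1-positive and 24.4% of Lrg1-negative mgR members, and in 53.3% and 16.7% in WT. Depth moved with some of these shares, as the Vwf-positive members had medians of 5011 UMIs in mgR and 5270 in WT and the Vwf-negative ones 4611 and 3738.5, and its part in them was not tested.

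The label was set beside marker lists, which were chosen with earlier results of these data known. The 14 pan-endothelial markers summed to 6074.9 CPM in WT and 5896.5 CPM in mgR members, with none at 0. Endocardial markers summed to 2805.9 and 2888.8 CPM, with none of 9 at 0 in either library, venous markers to 1345.0 and 1088.8, capillary markers to 899.7 and 730.7 and arterial markers to 409.7 and 598.1 CPM, with the arterial genes Gja5 and Sema3g at 0 in both. Of the 10 lymphatic markers, Pdpn, Ccl21a, Nrp2 and Tbx1 were at 0 in WT members and none was at 0 in mgR members. The members thus carried the whole pan-endothelial and endocardial lists, but so did the mgR set B cells, so these lists do not set the members apart. The lymphatic genes at 0 in WT rest on 27 cells. At least 2 lymphatic markers were detected in 33.3% of WT and 33.2% of mgR members, and in 40.0% of WT and 40.8% of mgR set B cells.

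Several lymphatic genes were confined to a few mgR members. Counting cells with UMIs of at least 2 of Ccl21a, Mmrn1, Lyve1, Pdpn, Reln and Tbx1, 1 WT and 7 mgR members qualified. The 7 mgR cells held 756 UMIs of Ccl21a, the lymphatic chemokine, found in each of them at 16606.3 CPM over the 7, and Prox1 with 17 UMIs in all 7. They carried 98 UMIs of Mmrn1 and 14 of Pdpn, no Vwf and no Cytl1. In the 238 mgR members with neither a lymphatic nor a capillary count, Ccl21a, Mmrn1, Pdpn, Reln and Tbx1 had 0 UMIs. Lyve1, the remaining gene of the lymphatic count, had 19 UMIs in 14 of them. Prox1 was found in 128 of the 238 cells, the lymphatic growth factor receptor gene Flt4 in 62 and Foxc2, a transcription factor of lymphatic and venous valves, in 50. A capillary minority, counted in the same way from Cd36, Fabp4, Gpihbp1, Rgcc, Aqp7 and Car4, came to 2 WT and 15 mgR cells, and in mgR it held 52 Vwf UMIs in 12 cells and 19 Prox1 UMIs in 5. A single mgR cell met both counts. Leaving out both minorities left each count of genes given below within 1.5 times of its value.

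Markers of other cell types were low with the exception of the fibroblast list, chiefly Dcn, the proteoglycan decorin, which fibroblasts produce in quantity. The 7 fibroblast markers summed to 6689.5 CPM in WT and 6802.7 CPM in mgR members. Most of this was Dcn, which had 639 UMIs in 26 of 27 WT members and 8412 UMIs in 248 of 259 mgR members. At least 2 of the 7 were detected in 66.7% of WT and 63.7% of mgR members. Col3a1 and Pdgfra were at least 2-fold higher in members than in set B cells in both libraries. Dcn stood at 5691.9 and 6098.0 CPM in members, at 1561.2 and 3445.1 CPM in set B cells, and at 234.2 and 325.8 CPM in Ptprc-positive cells. The collagen gene Col1a1 had only 2 WT and 40 mgR UMIs in the members. Macrophage markers summed to 17.8 and 73.9 CPM, mural to 71.3 and 50.7, erythroid to 320.7 and 255.2, cardiomyocyte to 62.4 and 35.5 and platelet to 17.8 and 10.9. Lymphocyte, neutrophil, melanocyte and Schwann markers were at 0 in WT members and at most 7.25 CPM in mgR members. Cells with 5 or more summed UMIs of Col1a1, Col1a2, Col3a1, Dcn and Lum, called fibroblast UMIs below, were 22 of 27 WT and 233 of 259 mgR members. Dcn supplied most of the fibroblast UMIs of the members. Values without these cells rest on 5 WT and 26 mgR cells. Whether the Dcn molecules came from the endothelial cells or from fibroblast RNA was not tested.

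Members were then set against set B cells within each library, which asks what else went with the set A genes. This is the contrast that the rule itself uses, and the values are a description. Of 3359 genes with a mean of at least 50 CPM, the rule's genes left out, 94 (2.80%) were at least 2-fold higher in members in both libraries and 144 (4.29%) at least 2-fold lower. The genes named were the 12 with the strongest bounds in each direction.

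Among the named genes higher in members, Ahsg, which encodes fetuin-A, a plasma glycoprotein that keeps calcium phosphate in solution, had 57 UMIs in WT members and 0 in set B cells, at least 19.3-fold higher against the floor of 3 UMIs used for every 0 sum here (15.2-fold as the lower counting limit), and 747 against 22 UMIs in mgR, a ratio of 27.7 (18.2 to 44.5). Fn1, the matrix glycoprotein fibronectin, was at 1380.7 against 149.1 CPM in WT, a ratio of 9.26 (5.60 to 16.3), and 1457.1 against 139.4 CPM in mgR, a ratio of 10.5 (8.88 to 12.4). Apoe, the lipoprotein carrier, had ratios of 10.8 (8.12 to 14.7) and 4.21 (3.99 to 4.46), and it was found in 25 of 27 WT and 250 of 259 mgR members. Without the cells with 5 or more fibroblast UMIs its ratios were 2.01, on 12 against 16 UMIs, and 2.42. Postn, the matricellular protein periostin, had 162 UMIs against 2 in WT, a ratio of 82.3 (22.4 to 685.1), and a ratio of 6.27 (5.37 to 7.35) in mgR. It was detected in only 14 WT and 145 mgR members, fewer than Apoe.

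Nrp1, a co-receptor for vascular endothelial growth factor and semaphorins, had 24 UMIs against 0 in WT, at least 8.12-fold higher against the floor (lower counting limit 6.11), and a ratio of 7.15 (5.58 to 9.29) in mgR. Ednrb, the endothelin B receptor, had 28 UMIs against 1 in WT and a ratio of 10.2 (7.08 to 15.1) in mgR. Epha7, an ephrin receptor, had 18 against 0 UMIs in WT and a ratio of 5.66 in mgR, and Lsamp, an immunoglobulin-family adhesion molecule, 44 against 1 UMIs and 6.33. Tm4sf1, an endothelial membrane protein, stood 7.07-fold higher in WT and 5.67-fold in mgR. The scaffold protein Akap12 had 20 against 0 UMIs in WT, at least 6.77-fold higher against the floor (lower counting limit 5.01), and a ratio of 40.4 (18.4 to 111.0) in mgR, and the matricellular gene Ccn2 likewise 20 against 0 UMIs, in 3 WT members, and 7.91 in mgR. Among Y-only mgR cells the Ccn2 ratio was 1.05, the only ratio under 2 among the named genes of this direction in any subset of cells where one could be formed.

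**Figure D3:**
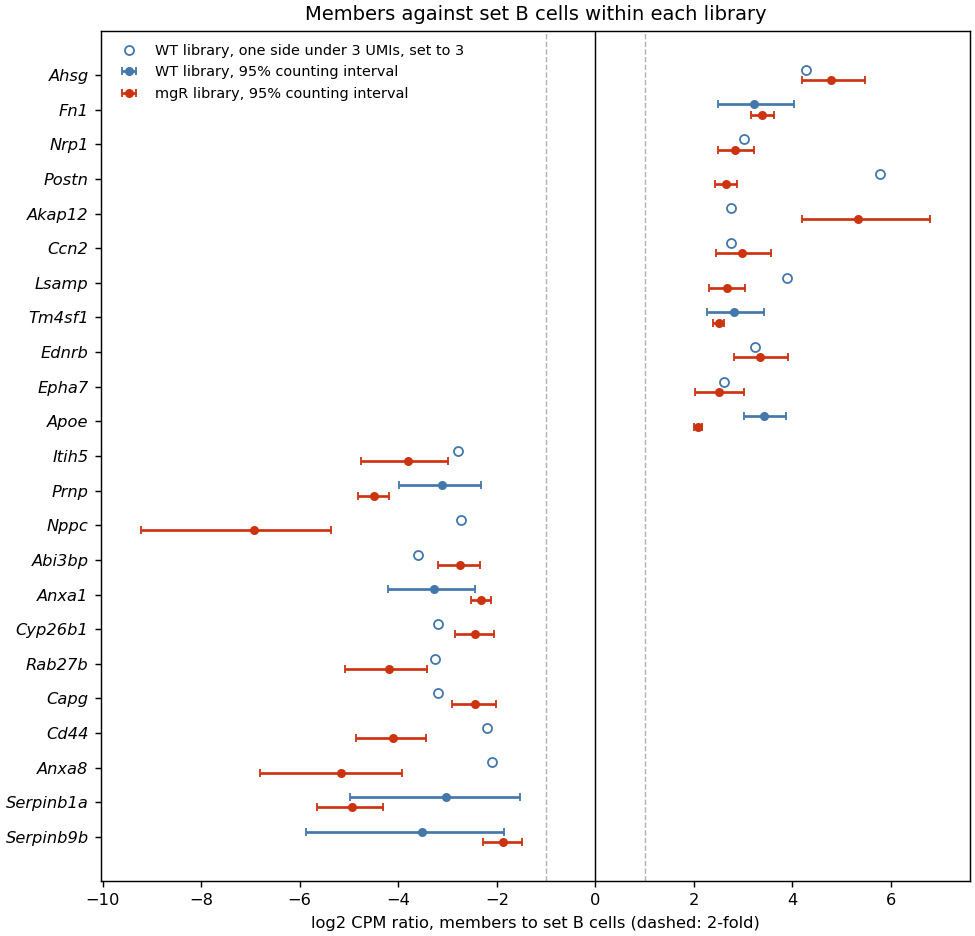
Log2 CPM ratio of members to set B cells (x axis) for the named genes (y axis) in the WT library (blue) and the mgR library (red), with 95% counting intervals; open circles have one side under 3 UMIs, set to 3, and carry no interval, and dashed lines mark 2-fold. Ahsg, Fn1 and Apoe lie to the right of the upper 2-fold line and Prnp, Nppc and Serpinb1a to the left of the lower one in both libraries.

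Among the named genes lower in members, Prnp, which encodes the prion protein, was at 133.6 against 1149.0 CPM in WT, a ratio of 0.116, and at 62.3 against 1404.3 CPM in mgR, a ratio of 0.0444 (0.0353 to 0.0552). A part of its counts may belong to a readthrough gene annotated on the same strand. Nppc, which encodes C-type natriuretic peptide, had 0 UMIs in WT members against 20 in set B cells and 3 against 300 in mgR, the 300 lying in 22 set B cells. Its clearance receptor Npr3 had the other direction, with 18 UMIs in 3 WT members against 0 and a ratio of 5.88 in mgR. Anxa1, the lipocortin, had ratios of 0.104 and 0.201. Cd44, a hyaluronan receptor, had 0 against 14 UMIs in WT and a ratio of 0.0583 in mgR, and Itih5, of a family that binds hyaluronan, 0 against 21 and 0.0713.

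Serpinb1a, an inhibitor of neutrophil proteases, had ratios of 0.123 in WT and 0.0325 in mgR. Serpinb9b had 3 against 35 UMIs in WT and a ratio of 0.272 in mgR, and it belongs to a family of close copies among which reads can be split. Cyp26b1, which degrades retinoic acid, had 1 UMI against 28 in WT and a ratio of 0.183 in mgR. Abi3bp, a matrix protein, had 2 against 37 UMIs and 0.149, Capg, which caps actin filaments, 2 against 28 and 0.183, Rab27b, of secretory vesicles, 2 against 29 and 0.0547, and Anxa8 0 against 13 and 0.0278. All 12 stood lower in members in both libraries. Without the cells with 5 or more fibroblast UMIs the mgR ratio was 0.548 for Anxa1 and 0.819 for Abi3bp, past the 2-fold limit no longer.

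Endothelial pathway genes divided between the sets, in lists chosen with earlier results of these data known. Beside the list counts below, 2.80% of all 3359 tested genes were higher in members in both libraries and 4.29% lower. Of the TGF-β axis, 10 genes were tested and 3 were higher in members in both libraries, the co-receptor Eng (2.34 and 2.07), the latent TGF-β binding protein Ltbp1 (4.06 and 2.23) and the co-receptor Tgfbr3 (2.03 and 2.73). Of the bone morphogenetic protein (BMP) axis, 1 of 12 was higher, the transcriptional regulator Id2 (4.23 and 3.11), and 1 lower, the ligand Bmp2, with 1 UMI in WT members against 16. Of the vascular endothelial growth factor and angiopoietin list, 7 were tested, the receptor Kdr (3.94 and 2.66) and Nrp1 were higher and the ligand Pgf was lower. The angiopoietin receptor Tek stood near 1 (1.04 and 1.01), as did the Notch receptor Notch1 (1.07 and 1.03) and the endocardial transcription factor Nfatc1 (0.952 and 1.10). The receptors named in this paragraph were either higher in members or level with set B cells. Receptors named elsewhere went both ways, with Ednrb higher and Cd44 lower in members.

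Of 13 tested junction and caveola genes, the claudin Cldn5 was higher in members (7.62 and 2.59) and the adhesion molecule Esam (0.183 and 0.407) and the connexin Gja1 were lower. Of 10 tested interstitial matrix genes 4 were higher, Fn1, Postn, Fbln2 and Bgn, and none lower. Of 5 tested lipid-handling genes 3 were higher, namely Apoe, the fatty acid carrier Cd36, which had 32 UMIs in 4 WT members against 0, and the lipoprotein lipase gene Lpl, which had 30 UMIs against 1. Stmn2 (0.305 and 0.188) and the transcription factor Sox17, on the arterial list, were lower in members, as were Hey2 of the Notch list, Plat of the haemostasis list (0.484 and 0.416), Ltbp2, Vegfa and Itgav. Cytl1, a small secreted protein on the endocardial list, was 2.52-fold higher in WT and 2.50-fold in mgR, but 0.0865 and 0.636 without the cells with 5 or more fibroblast UMIs.

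The 79 tested ribosomal protein genes had a median log2 ratio of members to set B cells of 0.39 in WT and 0.65 in mgR, against -0.10 and -0.11 over all tested genes, and none was 2-fold apart. Set B cells were deeper, with medians of 5304 UMIs in WT and 6925 in mgR, and whether depth contributed to this difference was not tested. Start-site windows of the genes higher in members held the ETS match in 64.9% and the Klf match in 47.4%. Those of the genes lower in members held them in 67.4% and 49.3%, so the directions did not stand apart from each other in either motif. Over all promoters the shares were 71.4% and 31.5%, so in both directions the Klf match was more frequent and the ETS match less frequent than in promoters at large.

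Levels were also read by the margin, which is the value that chose the cells, so that they describe the choice. In mgR cells with a margin of 1 or 2 (65 cells), 3 or 4 (102 cells) and 5 to 8 (92 cells), Ahsg stood at 139.7, 475.0 and 841.6 CPM and Tm4sf1 at 2372.2, 4329.5 and 5036.9 CPM. Anxa1 ran the other way, at 446.5, 142.3 and 47.2 CPM, as did Prnp at 136.7, 44.1 and 34.5 CPM. The flow-responsive transcription factor gene Klf2 stood at 2354.0, 2495.5 and 2601.0 CPM and Dcn at 5813.6, 6105.4 and 6261.2 CPM, a smaller spread, and Postn at 880.8, 1072.4 and 1064.7 CPM. In WT, with 11, 6 and 10 cells, Ahsg did not run in order, at 217.4, 819.8 and 663.0 CPM.

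Levels in mgR members were compared with those in WT members over 3206 genes with a mean of at least 50 CPM. At least 2-fold higher in mgR were 120 genes (3.74%) and at least 2-fold lower 218 (6.80%). With size factors from the median of gene ratios in place of total UMIs, which shifts every log2 ratio by 0.23 in favour of mgR, the split was 234 higher and 120 lower, so the number in each direction depends on the scaling. Among cells with a mitochondrial share of at most 5%, in place of 10%, the counts were 135 higher and 213 lower. The 27 WT cells limit the precision, as the higher genes had a median of 5 WT UMIs and the lower ones 12, and 104 of 120 and 182 of 218 had under 20. In named genes a single cell held at most 25% of the UMIs of the higher library.

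Fos, part of the AP-1 factor, had 64 UMIs in 19 of 27 WT members and 3225 UMIs in 193 of 259 mgR members, which is 570.1 and 2337.9 CPM and a ratio of 4.10 (3.20 to 5.34). In set B cells its ratio was 1.10 (0.936 to 1.29) and in cells outside the gate 0.785. Klf2, induced by laminar flow, stood at 935.3 CPM in WT (105 UMIs) and 2503.9 CPM in mgR (3454 UMIs), a ratio of 2.68 (2.20 to 3.28), against 1.26 (1.09 to 1.46) in set B cells. Within Xist-only members the ratios were 2.02 for Fos and 1.56 for Klf2, and within Y-only members 9.91 and 11.8, so the size of both moved by over 1.5 times with the kind of cell compared.

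The dissociation stress list, which holds genes induced while tissue is digested, had the highest median of the pathway lists. All 18 were tested, 15 (83.3%) had a ratio above 1, against 45.4% of the 3206 genes, and 3 were at least 2-fold higher, against 3.74% of the genes, namely Fos, the phosphatase gene Dusp1 (2.27) and Egr1 (2.08), with none 2-fold lower. The median log2 ratio was 0.63, against -0.06 over all genes, 0.12 for the same list in set B cells and -0.20 in cells outside the gate. The list summed to 9406.3 CPM in WT and 15474.9 CPM in mgR members, and to 11559.7 and 12331.6 CPM in set B cells. The WT members thus had the lowest sum of the 4. Ier2 (2.0), Atf3 (1.99), Klf4 (1.98) and Jun (1.85) lay at or just under the limit, and the heat shock gene Hspa1a stood at 0.771. Within Xist-only members Dusp1 stood at 1.66, Egr1 at 1.21, Jun at 1.31 and Klf4 at 1.26, and within Y-only members at 2.85, 2.72, 3.10 and 4.31. A response to digestion and a response in the animal cannot be told apart here.

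Fst, which encodes the activin antagonist follistatin, had 2 WT UMIs, both in 1 cell, and 217 mgR UMIs in 43 cells, a ratio of 8.83 (2.42 to 73.4). Bmp6, a BMP ligand, had 2 UMIs in 2 WT and 182 in 81 mgR members, a ratio of 7.41 (2.02 to 61.6), and Edn1, the vasoconstrictor endothelin-1, 2 UMIs in 1 WT and 179 in 42 mgR members, a ratio of 7.28 (1.99 to 60.6). In set B cells the ratios were 1.62 for Fst, 2.58 for Bmp6 on 2 WT UMIs and 0.708 for Edn1. Il6st, the shared receptor chain gp130 of the interleukin 6 family, was detected in 18 of 27 WT and 225 of 259 mgR members, with a ratio of 2.40 (1.71 to 3.46) and 1.39 in set B cells. Without the cells with 5 or more fibroblast UMIs the Il6st ratio was 1.47 (0.531 to 5.65). Of these genes Il6st rested on the most WT molecules, 35 UMIs.

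Scp2, a sterol carrier, had 5 UMIs in 5 WT members and 322 in 162 mgR members, a ratio of 5.24 (2.22 to 16.3), against 1.13 in set B cells. Fabp5, a fatty acid binding protein, stood at 409.7 CPM in WT and 999.7 CPM in mgR, 2.44-fold (1.82 to 3.35), and at 1.16-fold within Xist-only members and 11.6-fold within Y-only ones on 2 WT UMIs. Gstm1, a glutathione transferase from a family of close copies, had 7 UMIs in 7 WT members and a ratio of 4.14 (1.99 to 10.4). Its ratio in set B cells was 2.04 (1.01 to 4.80), on 8 WT UMIs. Tm4sf1 was at 1799.3 CPM in WT and 4145.1 CPM in mgR members, a ratio of 2.30 (2.0 to 2.66), and its ratio was higher still in set B cells, at 2.88 (1.99 to 4.32), and 0.744 in cells outside the gate. Tpt1, a growth-related protein with processed copies in the genome, had a ratio of 1.88 (1.71 to 2.08), 1.84 in set B cells and 1.52 outside the gate, and its log2 ratio of 0.91 was 1.14, past 2-fold, with median-of-ratios scaling. The RNA helicase gene Ddx46 had 2 WT UMIs and a ratio of 6.23 (1.69 to 51.9). The Tm4sf1 ratio in members was 1.54 within Xist-only cells and 1.17 (0.747 to 1.91) without the cells with 5 or more fibroblast UMIs, both under the 2-fold limit.

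**Figure D4:**
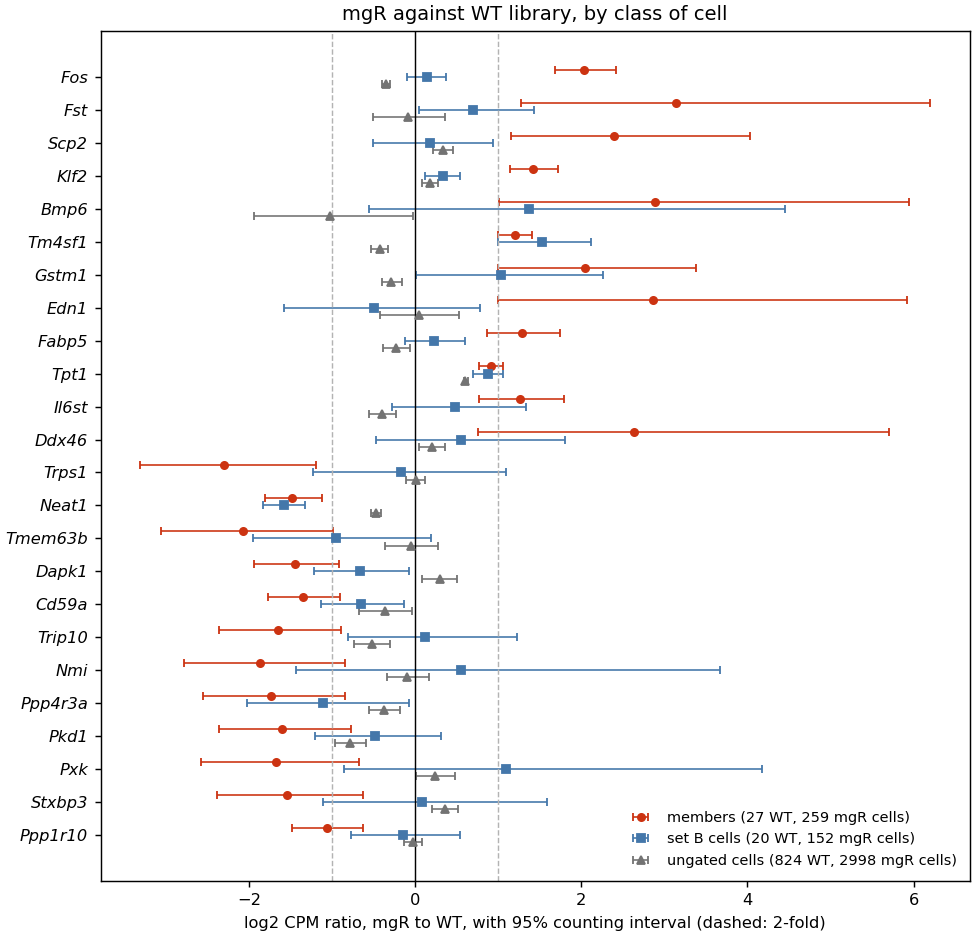
Log2 CPM ratio of mgR to WT (x axis) for the named genes (y axis) in members (red), set B cells (blue) and cells outside the endothelial gate (grey), with 95% counting intervals and dashed lines at 2-fold. Fos, Klf2, Fabp5 and Il6st lie past 2-fold in members and at ratios between 1 and 1.5 in set B cells, whereas Tm4sf1 and Neat1 differ in the same direction in both.

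Among the genes lower in mgR members, Neat1, a nuclear long non-coding RNA, had the most molecules, 89 UMIs in 18 WT members and 393 in 140 mgR members. Its levels were 792.8 and 284.9 CPM, a ratio of 0.359 (0.285 to 0.458), and the ratio was 0.334 (0.280 to 0.399) in set B cells, 0.723 outside the gate and 0.611 within Xist-only members. The lower Neat1 was shared by members and set B cells. Cd59a, an inhibitor of the complement membrane attack complex, had 56 UMIs in 25 of 27 WT members and 271 in 135 of 259 mgR members, a ratio of 0.394 (0.294 to 0.535), against 0.637 in set B cells. Dapk1, a death-associated protein kinase, stood at 365.2 and 134.1 CPM, a ratio of 0.367 (0.261 to 0.528), and Ppp1r10, a phosphatase-targeting protein of the nucleus, at 481.0 and 229.8 CPM, a ratio of 0.478 (0.357 to 0.650), or -0.84 on the log2 scale with median-of-ratios scaling, no longer 2-fold.

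The other 8 named lower genes had 12 to 21 WT UMIs each. Trps1, a GATA-type repressor, had a ratio of 0.203 (0.101 to 0.436), Tmem63b, a membrane channel, 0.237, Nmi, an interferon-induced protein, 0.275, and Ppp4r3a, a phosphatase subunit, 0.300. Pxk, which binds phosphoinositides, had a ratio of 0.313, Trip10, a Cdc42-interacting protein, 0.318, Pkd1, which encodes polycystin-1 and overlaps Tsc2 on the other strand, 0.330, and Stxbp3, of membrane fusion, 0.342. In set B cells the ratios of Trps1, Trip10 and Stxbp3 lay between 0.886 and 1.09, on 8, 10 and 6 WT UMIs. Those of Nmi (1.47) and Pxk (2.13) rested on 2 WT UMIs each. Ratios below 1 were also seen there for Ppp4r3a (0.464, 0.245 to 0.952), Tmem63b (0.516, 0.259 to 1.14) and Pkd1 (0.714, 0.434 to 1.24). The ratio of Tmem63b within Xist-only members was 0.915, on 1 WT UMI.

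The other pathway lists had medians between -1.0 and 0.36. Beside the list counts below, 3.74% of all 3206 tested genes were at least 2-fold higher in mgR members and 6.80% at least 2-fold lower. The 80 tested ribosomal protein genes had a median log2 ratio of 0.36, with 67 (83.8%) above 1 and 5 at least 2-fold higher (Rpl13a, Rpl14, Rpl5, Rps15 and Rps6), against 0.07 in set B cells and 0.01 outside the gate. The 9 tested flow-response genes had a median of 0.23, with Klf2 and Edn1 past 2-fold, and the 10 tested BMP genes 0.21, with Bmp6 and Bmp4 (3.09) higher and none lower. The Bmp4 ratio was 0.367 without the cells with 5 or more fibroblast UMIs. Of 9 TGF-β response genes the matricellular gene Ccn1 (2.66, and 1.65 within Xist-only members) was higher, with a list median of 0.07, and of 11 genes of the TGF-β axis none was higher and the receptor gene Acvrl1 was lower, with a list median of -0.19. The TGF-β lists thus stood close to the median of all genes.

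Basement membrane genes had the lowest median of the pathway lists apart from interferon genes, -0.71, with 8 of 9 below 1, where 45.4% of all genes were above it, and only the laminin gene Lamc1 (0.448) at least 2-fold lower. The same list had medians of -0.41 in set B cells and -0.72 outside the gate, so lower values were seen in all 3 kinds of cell. Sparc, the collagen-binding glycoprotein, was the gene above 1 (1.84). Interstitial matrix genes had a median of -0.09 over 10 tested, with Eln, the gene of elastin, higher (2.13), Fbn1 lower, Fn1 at 1.06, Postn at 0.709 and Bgn at 1.57. Interferon genes had a median of -1.0 over 6 tested and 3 at least 2-fold lower, Ifit1, Ifit3 and Isg15, against 6.80% of all tested genes. All 26 Ifit3 UMIs of WT members lay in 1 cell, and 71.8% of their Isg15 UMIs likewise in 1, and among members with a margin of at least 2 the Isg15 ratio was 0.991. It was 2.38 within Xist-only members, on 2 WT UMIs, and 0.427 within Y-only ones. Much of the WT level of Ifit3 and Isg15 thus lay in a single cell.

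**Figure D5:**
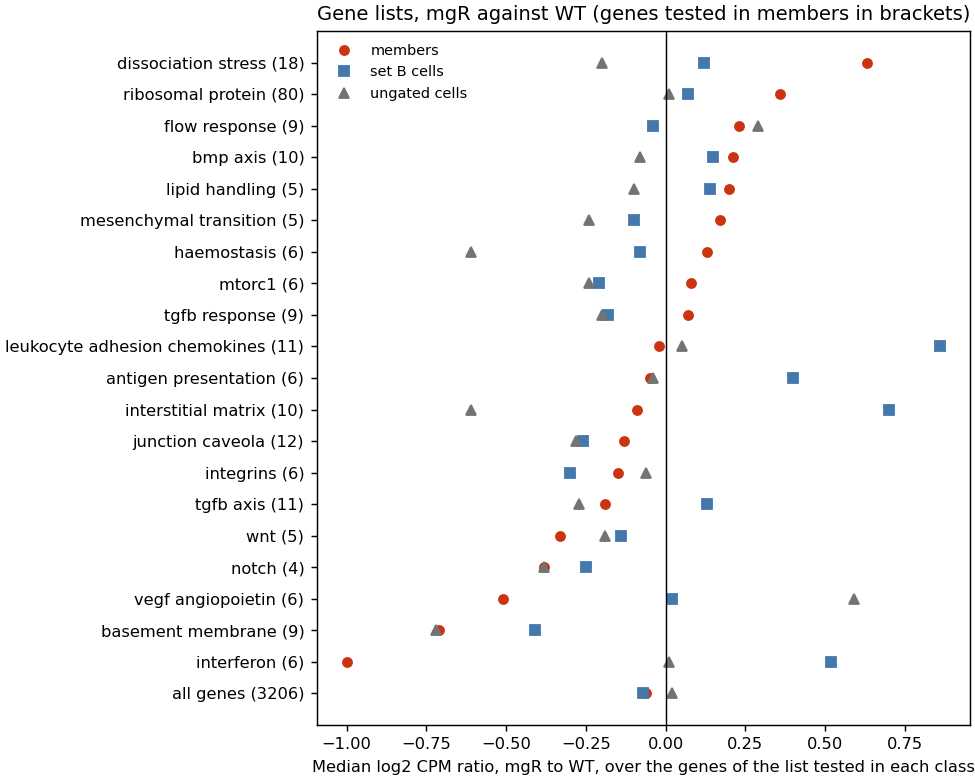
Median log2 ratio of mgR to WT levels (x axis) over the tested genes of each pathway list with more than 1 such gene, and of all genes (y axis), in members, set B cells and cells outside the endothelial gate. In members the stress list lies furthest right (0.63) and the interferon list furthest left (-1.0), and the median over all tested genes was -0.06.

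Adhesion and junction genes were divided. The shares over all 3206 tested genes, to be set beside the counts here, were 3.74% higher and 6.80% lower. Of 11 tested leukocyte adhesion and chemokine genes, 3 were at least 2-fold higher in mgR members, namely P-selectin (Selp, 2.50), Cxcl16 (2.24) and Ccl7, and 2 lower, the scavenging receptor Ackr3 (0.456) and Csf1 (0.475), with a median of -0.02 in members and 0.86 in set B cells. Vcam1, an adhesion molecule for leukocytes, stood at 0.693 in members and 2.30 in set B cells. Of 12 junction and caveola genes the connexin Gja4 was higher (3.13) and Cldn5 lower (0.361), and Cldn5 stood at 2.41 within Xist-only members, on 2 WT UMIs, and at 0.119 within Y-only ones. Of 6 tested vascular endothelial growth factor and angiopoietin genes Nrp1 was higher (2.08, and 1.49 within Xist-only members), with a median of -0.51. Of 5 lipid-handling genes Fabp5 was higher and Lpl (0.231) and Cd36 (0.298) were lower, 78.1% of the WT Cd36 UMIs being in 1 cell. Within Xist-only and Y-only members Lpl stood at 0.520 and 0.208 and Cd36 at 0.0482 and 0.712. Of 5 Wnt genes Fzd4 was higher and Dkk3 lower. No gene was 2-fold apart among 4 Notch, 6 integrin, 6 antigen presentation, 6 mTORC1, 6 haemostasis, 5 mesenchymal transition and 1 cell cycle genes that passed the filter. The absence of a 2-fold difference in these lists says little of genes under 50 CPM, which were not compared.

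Marker list counts stand beside the same shares of all tested genes, 3.74% higher and 6.80% lower. Of 13 tested pan-endothelial genes Cldn5 and the transcription factor gene Sox18 (0.390) were lower in mgR members, with a list median of 0.02. Of 8 endocardial genes Cdh11 (0.420) was lower, and of 3 arterial genes Gja4 was higher and Stmn2 (0.292) lower, with an arterial list median of 0.89. Within Xist-only members Cdh11 stood at 0.272 and within Y-only members at 0.608. After thinning its ratio was 0.907 (0.422 to 2.32), and with a margin of at least 2 it was 0.734, both short of 2-fold. The lymphatic list summed to 472.1 CPM in WT and 1075.1 CPM in mgR members. Ccl21a, the lymphatic chemokine, had 0 UMIs in WT and 756 in mgR members, all in the 7 lymphatic cells. Of 6 tested fibroblast genes, Col1a2, Dpt and Pdgfra were lower in mgR members and none higher, with a list median of -0.84.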

How the data were processed

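RNA was measured in viable-sorted mitral valve cells, with 1 library per genotype. The deposited files hold unnormalized UMI counts per gene and barcode, which the authors made with Cell Ranger 7.1.0 on mm10 per the submitters' processing notes. The annotation release and the treatment of intronic reads are not given in the sources used here, and counts of antisense partners were taken as deposited. Of 32285 features 32158 matched GENCODE M21 by gene ID.

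Counts were summed over cells and scaled to CPM in Python 3.11.15 (numpy 2.4.6, scipy 1.17.1, pandas 2.3.3). Ratios carry exact conditional binomial intervals and shares Clopper-Pearson intervals. Sums under 3 UMIs were set to 3 for bounds, list medians and the counts of genes past 2-fold. Ratios printed for sums above 0 use the UMIs as counted. A gene counted as higher or lower past 2-fold, over genes with a mean of at least 50 CPM. Named genes were the 12 highest by the lower bound and the 12 lowest by the upper bound, at or above 100 CPM. For mgR against WT they also needed a 1.5-fold difference in the mean of per-cell CPM and at least 50% of the level of ungated cells. Mitochondrial, ribosomal, haemoglobin, predicted, sex-linked marker and rule genes were left out of the naming. A single gene named by this rule is not reported here. Levels were compared between cells for one gene at a time, never between genes.

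The members and the 36 gene lists were chosen with earlier results of these data known. Doublets were not removed. Scrublet, run through scanpy 1.11.5, marked 0.800% of WT and 1.48% of mgR cells, 1 member in each library. The ratio calculation was tested on simulated data. Figures were drawn with matplotlib 3.10.9. Alternatives covered scaling, expression minimum, per-cell means, thinning, mitochondrial limit, doublets, margin, gate, fibroblast UMIs and sex.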

Additional observations from a re-analysis of the deposited data

How the results depend on the processing

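With 1 library per genotype, animals and libraries cannot be told apart, no replicate could be left out, and no value carries a biological error. No paired analysis was possible because each genotype has 1 library and no result comes from a test. Counts of genes that moved by over 1.5 times follow, higher before lower. For mgR against WT in members (120 and 218), they were 234 and 120 with median-of-ratios scaling, 209 and 980 at a minimum of 10 CPM, 20 and 21 at 200 CPM, 58 and 575 after thinning and 60 and 411 without cells with 5 or more fibroblast UMIs. The lower count alone moved to 334 with per-cell means, 425 in cells with no gene of the other set, 527 in Xist-only and 520 in Y-only cells. For members against set B cells (94 and 144), they were 23 and 43 at 200 CPM, 60 and 95 after thinning and 61 and 221 with no gene of the other set. The higher count was 52 in Xist-only cells, and the lower count 28 without fibroblast-marker cells and 55 in Y-only cells. Subsets with fewer WT cells have fewer UMIs, and the cause of the other moves was not tested. The member share difference was 26.6 percentage points in Y-only cells and between -5.92 and 15.1 in the other subsets. The mitochondrial limit of 5%, Scrublet, a margin of 2, a gate of 6 UMIs and the removal of lymphatic and capillary minorities (this last alternative chosen after seeing the data) kept all 4 counts within 1.5 times. Over named genes and lists, 290 of 1364 values left the counting interval of the value given in the report. No gene named by its rank changed sign. Where a sum under 3 UMIs left no usable bound, the ratio was set to 1 and could not count as a change of sign. Some genes taken from the lists, such as Bmp4, Cldn5 and Cytl1, did change direction in subsets of cells.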
